A study of Mus musculus with 4 samples.

Results

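Compact ventricular cardiomyocytes were taken from single-cell RNA sequencing of E10.5 mouse hearts by their transcripts, and 997 of 28025 cells met the definition. They were chosen by measured values, the levels of 5 genes in each cell. A cell was kept when it had 500 to 6000 genes, 2000 to 50000 UMIs (unique molecular identifiers, 1 per captured transcript) and at most 20% mitochondrial UMIs. Among these, a cell was called compact when troponin T (Tnnt2) and ventricular myosin light chain (Myl2) were each at 10 or more UMIs per 10000, the trabecular and atrial peptide Nppa was below 10 per 10000, the transcription factor Hey2 had at least 1 UMI and the outflow tract gene Sema3c had at most 1 UMI. The hearts were from wild-type embryos (Wt) and from embryos homozygous for the I383V substitution in Cyp51 (Ho), an enzyme of cholesterol synthesis. Both genotypes were on the C57BL/6J strain, and the labels give CRISPR/Cas9 as the treatment of all 4 samples. Ho embryos carried the substitution in every cell, so an effect within cardiomyocytes and one from other tissues cannot be told apart. Each genotype had 2 libraries (Wt1, Wt2, Ho1, Ho2), and the number of hearts behind a library is not given in the sources used here, so that p-values measure the spread between libraries, which may be technical. There were 116 and 238 compact cells in the Wt1 and Wt2 libraries and 378 and 265 in the Ho1 and Ho2 libraries. The other 8779 cells with Tnnt2 at 10 or more per 10000 served as their counterpart.

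At midgestation the ventricular wall has an inner, trabeculated layer and an outer, compact layer. Compact cardiomyocytes divide faster and are less mature than trabecular ones, and they are marked by Hey2, a repressor downstream of Notch, and by the growth regulator Mycn. Trabecular cells carry natriuretic peptides (Nppa, Nppb), Bmp10 and conduction genes such as Gja5, and the thickness of the compact wall depends on signals from the epicardium and endocardium.

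Compact cells were well covered. The median UMI count per compact cell was 19946.5 and 22738.5 in Wt1 and Wt2 and 22418.5 and 24320 in Ho1 and Ho2, and the summed UMIs of the gate ranged from 2241973 in Wt1 to 8476188 in Ho1. Wt1 therefore had the fewest cells and the lowest depth per cell. Hey2 was the weakest part of the definition: 78 and 165 compact cells of Wt1 and Wt2 and 255 and 157 of Ho1 and Ho2 had a single Hey2 UMI. The limit of Tnnt2 held 3, 3, 15 and 1 compact cells between 10 and 12 Tnnt2 per 10000 in Wt1, Wt2, Ho1 and Ho2, and 1, 1, 12 and 0 cells just outside, between 8 and 10. For Nppa, 2, 10, 25 and 8 compact cells lay between 8 and 10 per 10000, and 2, 10, 15 and 2 cells lay just outside, between 10 and 12. The limits of Myl2 held 1 compact cell of each library between 10 and 12 per 10000, with 0, 1, 1 and 1 cells just below. For Sema3c, 18, 34, 86 and 70 compact cells had 1 UMI, and 7, 16, 30 and 18 cells stood outside with 2. No barcode of a compact cell occurred in more than 1 library, against 90 barcodes among all kept cells.

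The genes used to define the cells fixed their own levels, which are given as a description in UMIs per 1000000 summed UMIs (CPM). Myl2 was at 5328, 5545, 5607 and 5690 CPM in the compact cells of Wt1, Wt2, Ho1 and Ho2, and at 1872, 2635, 2914 and 2117 in the other Tnnt2 cells. Hey2 was at 77.2, 65.0, 65.2 and 69.2 CPM in compact cells and at 3.80, 6.99, 7.14 and 5.62 in the other cells. Nppa was at 97.7, 184, 223 and 189 CPM in compact cells, against 7423, 9386, 7675 and 8441 in ventricular cells with high Nppa (1481 cells under the same limits on Tnnt2 and Myl2 but with Nppa at 10 or more per 10000). Tnnt2 itself was lower in compact than in the other cells of each library, at 2865, 3017, 2912 and 2941 CPM against 3431, 3505, 3268 and 3505. The name compact therefore stands for cells high in Myl2 and Hey2 and low in Nppa. No clusters were drawn.

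A pair of libraries stood apart. Xist, the RNA of the inactive X, was at 206 CPM in the compact cells of Ho1 and at 0 UMIs in the other 3 libraries, which allows up to 1.34 CPM in Wt1. The summed Y chromosome genes Kdm5d, Ddx3y, Uty and Eif2s3y had 174, 427 and 572 UMIs in Wt1, Wt2 and Ho2 and 0 in Ho1, which allows up to 0.354 CPM. Sex and genotype therefore cannot be told apart for a gene that differs in Ho1 alone. Ho2 had more mitochondrial RNA, with a median of 2.15% of UMIs per compact cell against 1.54%, 1.50% and 1.56% in Wt1, Wt2 and Ho1.

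Compact cells made up 7.37% of the Tnnt2 cells in Wt1 (95% exact interval 6.13 to 8.77) and 9.76% in Wt2 (8.61 to 11). They made up 11.1% in Ho1 (10.1 to 12.2) and 11.2% in Ho2 (9.97 to 12.6). Both Ho libraries were above both Wt libraries, at 11.2% ± 0.0765 (SD, n = 2) against 8.57% ± 1.69 (SD, n = 2), a difference of 2.60 percentage points. In an exact permutation test over the libraries, two-sided, p was 0.333, which is the smallest this design can give. The chance of a Hey2 UMI differed with depth. Among Nppa-low ventricular cells, a Hey2 UMI was found in 23.5%, 31.6%, 31.9% and 39.5% of Wt1, Wt2, Ho1 and Ho2 cells, whose median depths were 14892, 19041, 19079 and 21061. When each cell was thinned to 5000 UMIs, which left out 6, 10, 8 and 2 compact cells that were shallower, these shares became 12.6%, 13.1%, 11.2% and 13.6%. The compact share of Tnnt2 cells, called again on the thinned counts, was 3.99% ± 0.224 (SD, n = 2) in Wt and 4.16% ± 0.104 (SD, n = 2) in Ho, a difference of 0.166 points (exact permutation p = 0.667). As a share of all kept cells, thinned compact cells were 0.725% and 1.44% in Wt1 and Wt2 and 1.97% and 1.65% in Ho1 and Ho2, without overlap (exact permutation p = 0.333). At equal depth the higher share in Ho thus depended on the denominator, and with 2 libraries a group no difference could pass the test. Free RNA was gauged from epithelial cells, which should lack Hey2. They had a Hey2 UMI in 1.25%, 3.85% and 1.17% of thinned cells of Wt1, Wt2 and Ho2. These shares were below those of the thinned Nppa-low ventricular cells. Ho1 held 1 epithelial cell, so free Hey2 RNA was not tested there. Endothelial cells, some of which use Hey2, had a Hey2 UMI in 8.39%, 8.60%, 7.66% and 8.75% of thinned cells. With all UMIs, Myl2 reached its limit in 0.411%, 0.284%, 3.23% and 0.55% of endothelial cells of Wt1, Wt2, Ho1 and Ho2. Whether Ho1 held more free RNA was not tested.

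**Figure D1:**
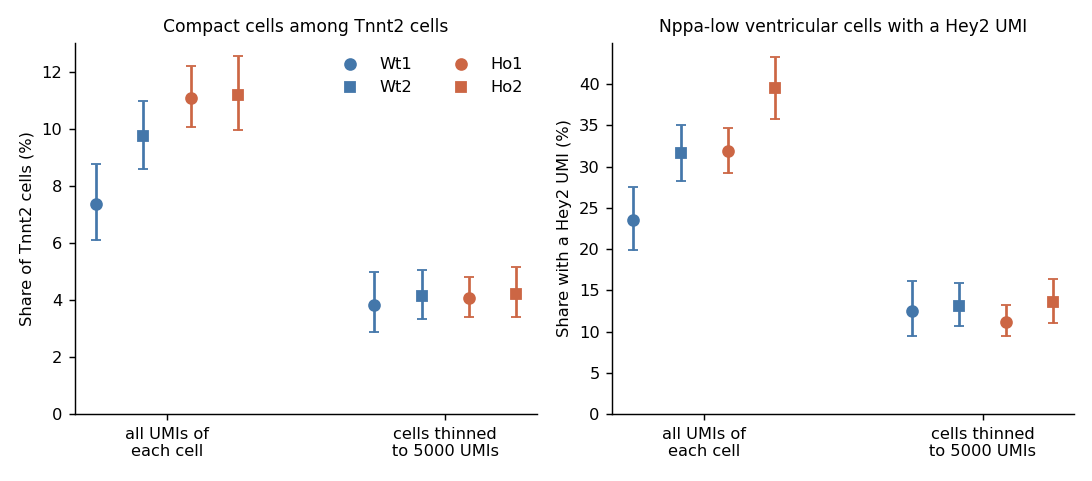
Left, compact cells as a percent of Tnnt2 cells; right, percent of Nppa-low ventricular cells with a Hey2 UMI, each with all UMIs and after thinning to 5000 UMIs per cell. Points are libraries (circle, replicate 1; square, replicate 2; blue, Wt; orange, Ho) and bars are exact 95% intervals of counting error. With all UMIs the Ho libraries sit at 11.1% and 11.2% and the Wt libraries at 7.37% and 9.76%, and after thinning all 4 sit near 4%.

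Against the other Tnnt2 cells, the genes highest in compact cells by ratio included the ventricular factor Irx4 and the cell cycle gene Ccnd2, and the lowest included genes of the sinus venosus, atria and outflow tract. The contrast lies within the same libraries and partly follows from the definition, so it is given without a test. Of 9068 genes with a mean of at least 5 CPM, the 5 defining genes left out, 18 (0.199%) were at least 1.5-fold higher in compact cells in all 4 libraries and 168 (1.85%) were at least 1.5-fold lower. The differences below are means ± SD of 4 log2 ratios, with 1 CPM added.

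The transcription factor Irx4, which is restricted to ventricles, was at 38.8, 47.5, 45.5 and 64.0 CPM in the compact cells of Wt1, Wt2, Ho1 and Ho2 and at 16.2, 21.4, 25.5 and 23.8 in the other cells, a log2 ratio of 1.13 ± 0.242. Ccnd2, a G1 cyclin, was at 590, 491, 547 and 684 CPM against 249, 243, 280 and 294, with a log2 ratio of 1.11 ± 0.138. Compact and other cells did not overlap for either gene. Mycn was at 36.6, 34.2, 34.8 and 39.3 CPM against 15.6, 18.4, 17.7 and 21.9, with a log2 ratio of 0.95. The pseudokinase Trib2 was the highest of those named by the rule, at 29.9, 27.1, 26.8 and 39.6 CPM against 9.27, 11.8, 13.2 and 13.0 (1.31 ± 0.302). Of 14 calcium cycling genes 1 was higher and 1 lower by this fold (median -0.151), and of 33 sarcomere genes 1 was higher and 3 lower. The higher calcium gene was phospholamban (Pln), but against ventricular cells with high Nppa none of 14 calcium genes was higher by this fold and 2 were lower. Pln, the brake on the calcium pump of the sarcoplasmic reticulum, was at 352, 366, 392 and 387 CPM against 163, 238, 238 and 200 in the other Tnnt2 cells (log2 ratio 0.85). The Z disc gene Myoz2 had a log2 ratio of 0.78 and the talin Tln2 one of 0.86, beside Gpr22 (1.00), Slc25a13 (0.91), Mpped2 (0.90) and Adprhl1 (0.71). Among genes under 20 CPM, named after their values were seen, were Prdm16, a regulator of compact wall identity (12, 11.6, 10.7 and 14.7 CPM against 4.03, 5.08, 4.52 and 4.40), and the growth factor Fgf9 (12.9, 12.2, 13.1 and 17.8 CPM against 3.99, 4.99, 7.74 and 7.97).

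Most of the lower genes named by the rule are known from other regions of the heart. Vsnl1, a calcium sensor of the sinus venosus, was at 3.12, 2.43, 13.2 and 3.91 CPM in compact cells and at 180, 121, 105 and 181 in the other cells, a log2 ratio of -4.68. The compact cells of Ho1 carried the most Vsnl1. Shox2, the factor of the pacemaker region, had a log2 ratio of -4.31, the peptide gene Calca -3.96, the atrial factor Nr2f1 -2.96 and the progenitor factor Isl1 -2.77. Signals of the inflow and outflow regions were lower too, with Bmp4 at 14.3, 12, 14.0 and 13.3 CPM against 117, 91.7, 50.5 and 118 (log2 ratio -2.65) and Wnt2 at a log2 ratio of -2.64. Itga6, a laminin receptor subunit, was at 41.0, 41.1, 47.2 and 48.2 CPM against 150, 144, 161 and 169, the steadiest of the lower genes named (-1.79 ± 0.038). In the gene lists, 5 of 10 atrial genes, 5 of 7 of the sinus venosus and pacemaker, 4 of 6 of the outflow tract and 3 of 7 of the atrioventricular canal were at least 1.5-fold lower in all 4 libraries, and none was higher. Of 9 ventricular identity genes 2 were higher and none lower, and of 9 compact wall genes 3 were higher and 1 lower. None of 14 trabecular genes passed the fold in either direction, and of 26 growth factor genes 1 was higher and 1 lower. Other lists held lower genes as well, with 4 of 28 of dissociation and heat shock, 3 of 8 mesenchymal markers and 2 of 10 Notch genes. The median log2 ratio of all genes was -0.0761.

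**Figure D2:**
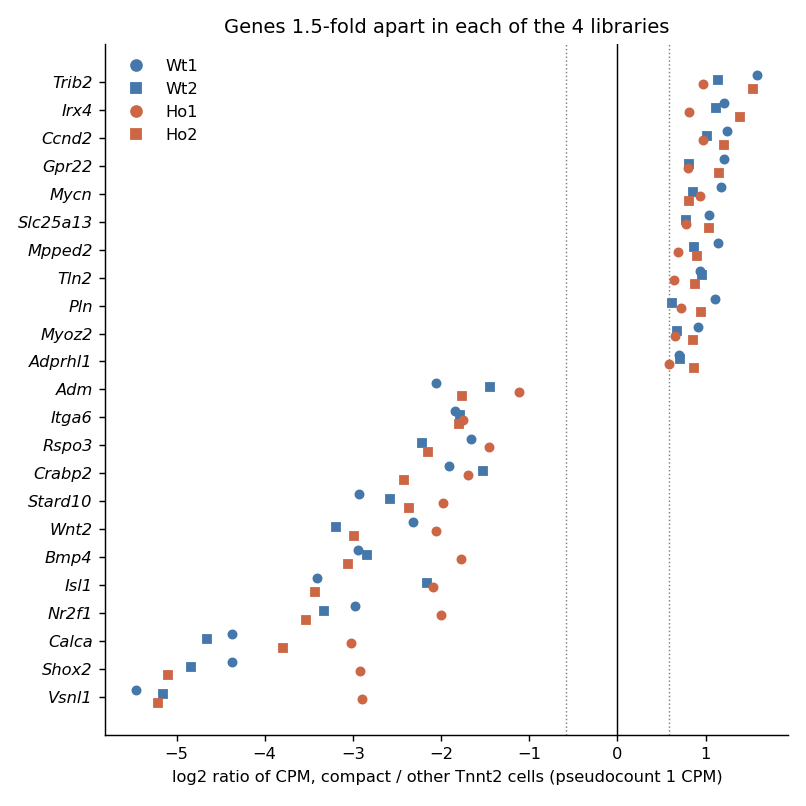
Log2 ratio of compact to other Tnnt2 cells (CPM plus 1) in each library for the genes named by the rule, 11 higher and 12 lower in compact cells. Circles are replicate 1, squares replicate 2, blue Wt and orange Ho, and dotted lines mark 1.5-fold. Trib2, Irx4 and Ccnd2 lead the higher genes, and Vsnl1, Shox2 and Calca the lower ones, with Ho1 nearest to 0 for Vsnl1.

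A closer contrast was with the 1481 Nppa-positive ventricular cells, which were split from compact cells on Nppa. Of 8927 genes, 33 (0.37%) were at least 1.5-fold higher in compact cells in all 4 libraries and 97 (1.09%) were lower. Of 15 trabecular genes, Nppa left out, 7 were lower and none higher (median log2 ratio -1.01), and of 9 compact wall genes 2 were higher and none lower. Outflow tract genes, a list that holds Wnt11, had 3 of 6 higher and none lower (median 0.98), and canal genes, a list that holds Tgfb2, had 2 of 7 higher and none lower (median 0.85). The genes named in this contrast and the next were chosen after their values were seen. Nppb, the B-type natriuretic peptide, was at 45.5, 104, 105 and 131 CPM in the compact cells of Wt1, Wt2, Ho1 and Ho2 and at 526, 755, 667 and 799 in the Nppa-positive cells, a log2 ratio of -2.90. Bmp10, the trabecular growth factor, was at 5.35, 9.91, 8.85 and 10.3 CPM against 57.6, 45.5, 49.7 and 62.2 (log2 ratio -2.54). The guidance cue Slit2 (-2.95), the conduction connexin Gja5 (-2.04) and the coregulator Cited1 (-2.01) were lower in the same way. Higher in compact cells were Mycn (log2 ratio 0.99), Ccnd2 (0.90), the Wnt effector Lef1 (1.24), the Wnt ligand Wnt11 (1.19), the growth factor Tgfb2 (1.27) and the Bmp target Id2 (0.85). Irx4 was at 39.2, 43.3, 45.6 and 63.0 CPM in the Nppa-positive cells, close to its level in compact cells.

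Cells that met every other limit but had no Hey2 UMI were much like compact cells. There were 2105 of them, and their median UMI counts were lower, at 13067 and 17038 in the Wt and 17551 and 18875 in the Ho libraries. Of 8942 genes, 1 (0.0112%) was at least 1.5-fold higher in compact cells in all 4 libraries, Sapcd2, a regulator of spindle orientation, at 7.58, 6.35, 7.08 and 8.92 CPM against 4.72, 3.52, 4.06 and 5.27. In the other direction 32 genes (0.358%) were lower in compact cells. They held 4 of 7 genes of the atrioventricular canal list, 4 of 6 of the outflow tract list and 1 of 5 of the sinus venosus and pacemaker list. Among the lower genes was the Wnt agonist Rspo3, at 26.3, 14.8, 40.0 and 26.5 CPM in compact cells against 134, 91.3, 163 and 189 (log2 ratio -2.41). Bmp2 (-1.90) and Tbx2 (-1.26) were lower as well.

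Compact cells carried more G2/M RNA than the other gates in every library. The summed level of 53 G2/M genes was 6310, 6754, 6570 and 6839 CPM in the compact cells of Wt1, Wt2, Ho1 and Ho2, and 5146, 5147, 5296 and 5052 in the other Tnnt2 cells. Every compact sum was above every sum of the other cells, 1.28-fold on average over the libraries. Against Nppa-positive ventricular cells the G2/M sum was 1.43-fold higher, and against the cells with no Hey2 UMI 1.14-fold. The sum of 43 S phase genes was 2501, 2370, 2278 and 2502 CPM in compact cells, 1.28-fold that of the other Tnnt2 cells but only 1.10-fold that of the cells with no Hey2 UMI. In Wt2 these were nearly level, at 2370 against 2339 CPM, and at 2204 against 2193 after thinning. With every cell thinned to 5000 UMIs, compact cells had 1.29-fold more G2/M RNA and 1.25-fold more S phase RNA than the other Tnnt2 cells. Against Nppa-positive cells, 2 of 52 G2/M genes were at least 1.5-fold higher in all 4 libraries and 0 lower, where 0.37% of all genes were higher. Among single mitotic genes, named after their values were seen, Nusap1 (log2 ratio 0.94), Prc1 (0.74) and Cenpf (0.63) were higher in compact cells. Between genotypes the sums of the full gate overlapped. The G2/M sum was 6704 ± 190 CPM (SD, n = 2) in Ho and 6532 ± 315 (SD, n = 2) in Wt, a difference of 172 CPM (exact permutation p = 0.667). The S phase sum was 2390 ± 158 CPM in Ho and 2436 ± 92.9 in Wt, a difference of -45.5 CPM (exact permutation p = 1). With cells thinned to 5000 UMIs, the G2/M sums were 6011 and 5943 CPM in Wt1 and Wt2 and 6154 and 6897 in Ho1 and Ho2, without overlap, a difference of 548 CPM. With at least 2 Hey2 UMIs per cell, G2/M was 440 CPM higher and S phase 278 CPM lower in Ho, again without overlap, and the exact permutation p of these 3 was 0.333, the smallest possible.

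**Figure D3:**
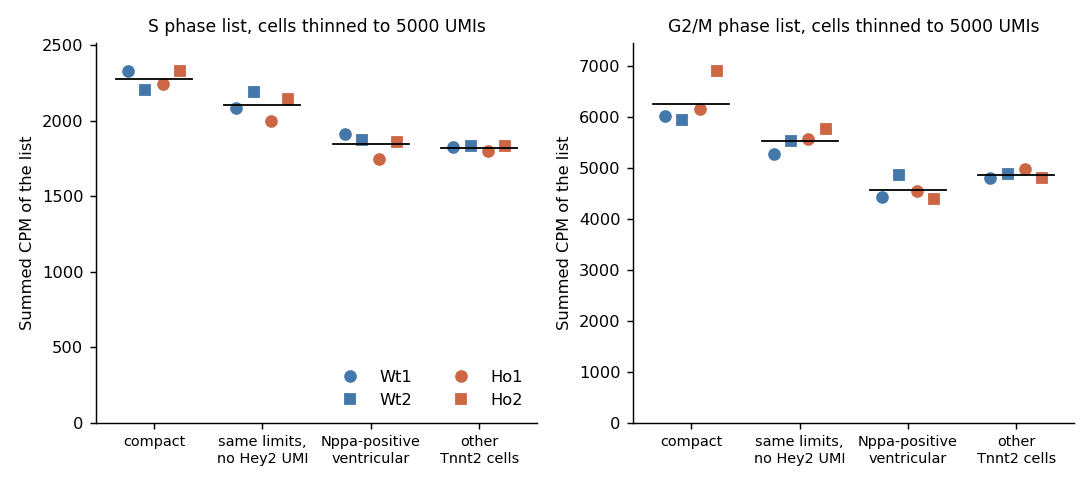
Summed CPM of the S phase and G2/M gene lists in 4 groups of cells, with each cell thinned to 5000 UMIs. Points are libraries (circle, replicate 1; square, replicate 2; blue, Wt; orange, Ho) and the line is the mean of the 4. Compact cells are highest in both lists, with thinned G2/M sums from 5943 to 6897 CPM against 4788 to 4964 in the other Tnnt2 cells.

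The comparison of Ho with Wt asked what the mutation changed within compact cells. The counts were summed per library and tested with edgeR's quasi-likelihood test with Benjamini-Hochberg adjustment, and levels are CPM normalised in that fit. In compact cells 4 of 11202 genes (0.0357%) had an adjusted p below 0.05, all higher in Ho. For Dqx1 that direction was set by the filter on low counts, which it passed through Ho alone. Pbld1 would not have passed that filter on its Wt counts alone. With at least 10 UMIs in every sum, which Dqx1 and Pbld1 did not have, 2 genes were called. The count moved with each library, to 26, 7, 169 and 126 when Wt1, Wt2, Ho1 and Ho2 were left out in turn. At an unadjusted p below 0.05 there were 468 genes higher in Ho (4.18%) and 298 lower (2.66%). Both Ho libraries were above both Wt libraries for 19.2% of the genes and below them for 18.1%.

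Cacna2d2 codes for an auxiliary subunit of voltage-gated calcium channels and lies on the plus strand of chromosome 9 of GRCm38, from 107399612 to 107529343. It was at 32.4 and 28.9 CPM in Wt1 and Wt2 and at 56.9 and 55.6 in Ho1 and Ho2. The groups did not overlap, and the log2 fold change was 0.90 (SE 0.135, adjusted p = 0.0148). In the other Tnnt2 cells its level was higher, at 70.2 and 55.3 CPM in Wt and 89.8 and 88.3 in Ho, with a log2 fold change of 0.51 that did not pass (adjusted p = 0.858). The annotated antisense genes Gm17118 and Gm17141 overlap Cacna2d2. Its adjusted p was 0.0822 with DESeq2 (log2 fold change 0.89), 0.282 without Wt2 (0.79) and 0.467 with cells thinned to 5000 UMIs (1.44).

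Wdr89, a gene for a WD repeat protein (chromosome 12, minus strand, 75630596 to 75669537), was at 41.5 and 45.4 CPM in Wt1 and Wt2 and at 73.1 and 79.3 in Ho1 and Ho2. Again the groups did not overlap, with a log2 fold change of 0.79 (SE 0.126, adjusted p = 0.0219). The other Tnnt2 cells gave 35.0 and 40.2 CPM in Wt and 63.3 and 61.1 in Ho, a log2 fold change of 0.72 (adjusted p = 0.470). In compact cells the adjusted p was 0.0822 with DESeq2, 0.0911 without Wt1, 0.154 without Wt2, 0.077 with sums thinned to the smallest and 0.815 with cells thinned to 5000 UMIs. In these 5 alternatives the log2 fold change of Wdr89 was between 0.74 and 0.98.

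The other 2 genes called were rare and came from few cells. Pbld1 (chromosome 10, plus strand, 63060162 to 63077962), which codes for a phenazine biosynthesis-like domain protein, had 2 and 14 UMIs in Wt1 and Wt2 and 85 and 109 in Ho1 and Ho2. These lay in 2, 5, 22 and 14 cells, with up to 28 UMIs in 1 cell, and the log2 fold change was 2.67 (SE 0.377, adjusted p = 0.0148). The antisense gene Gm48072 overlaps it. Dqx1 (chromosome 6, plus strand, 83057844 to 83067318), a DEAQ-box gene, had 2 UMIs in each Wt library, 99 in Ho1 and 35 in Ho2. A single cell held 44 of the UMIs of Ho1 and another 25 of those of Ho2. Its log2 fold change was 4.02 (SE 0.601, adjusted p = 0.0148), and the adjusted p was 0.0897 without Wt2 and 0.0823 with sums thinned to the smallest. With the top cell of each library left out Dqx1 was too rare to be tested. Pbld1 had an adjusted p of 0.0107 there, but 8 of its 14 UMIs in Wt2 lay in 1 cell. Its remaining Wt counts were too low for the filter, so Pbld1 entered that fit only through Ho and its p is no support. In the main fit Dqx1 entered only through its counts in Ho, and Pbld1 could not have entered on Wt counts alone. Neither gene was tested when every sum had to hold 10 UMIs.

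**Figure D4:**
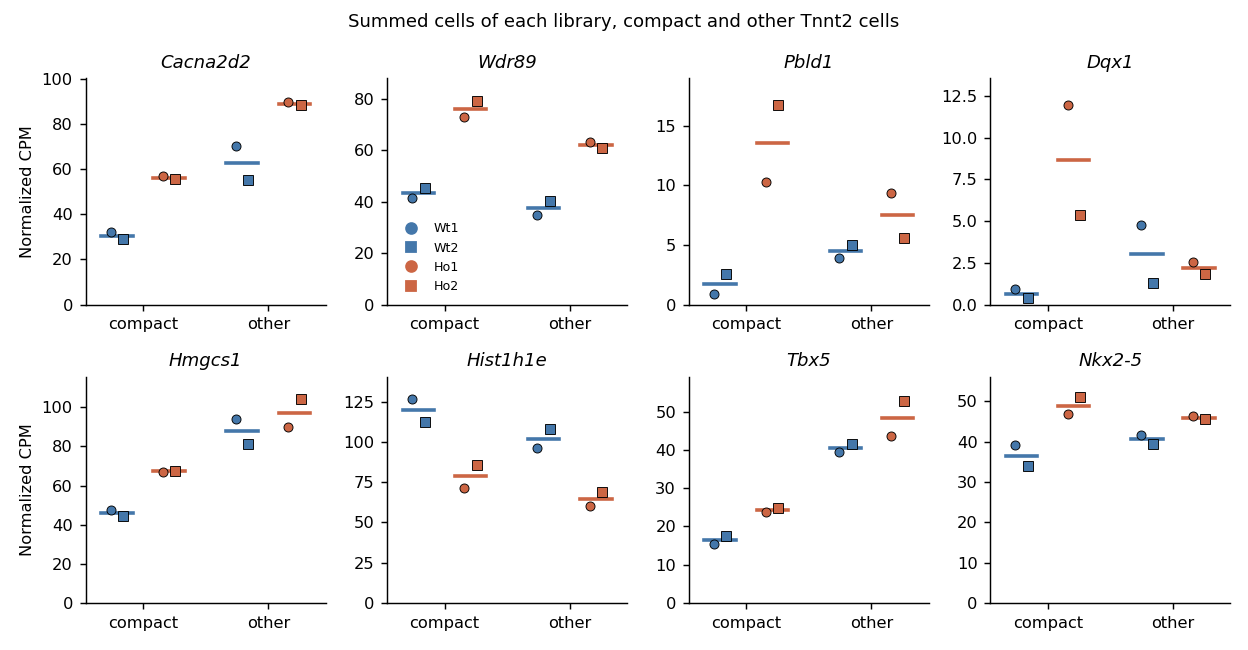
Normalised CPM of 8 genes in compact cells and in the other Tnnt2 cells, Wt on the left and Ho on the right of each group. Points are libraries (circle, replicate 1; square, replicate 2) and lines are means of 2. Cacna2d2 and Wdr89 rose in compact cells, Pbld1 and Dqx1 were called from few cells, and Hmgcs1, Hist1h1e, Tbx5 and Nkx2-5 did not pass after adjustment although their compact Wt and Ho libraries do not overlap.

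Among the genes with the next smallest p-values, none passed after adjustment, and their values are given as such. Hmgcs1, which makes HMG-CoA early in cholesterol synthesis, was at 47.4 and 44.5 CPM in Wt1 and Wt2 and at 67.0 and 67.5 in Ho1 and Ho2 (log2 fold change 0.56, SE 0.123, adjusted p = 0.240). The linker histone Hist1h1e, whose annotation overlaps Hist1h2be, was at 127 and 113 CPM in Wt and 71.5 and 85.8 in Ho (log2 fold change -0.60, adjusted p = 0.164). Igfbp5, a binding protein of insulin-like growth factors, was at 109 and 87.1 CPM in Wt and 169 and 137 in Ho (log2 fold change 0.67, adjusted p = 0.158). Genes of this group were taken only where the genotypes did not overlap, so the lack of overlap of these 3 is no result. The X-linked helicase gene Ddx3x was at 72.0 and 78.7 CPM in Wt and at 113 in each Ho library. Whether sex moved Ddx3x was not tested. The immediate early gene Fosb had a log2 fold change of 0.74, and the mitochondrial transcripts mt-Nd3 and mt-Nd1 had 0.75 and 0.63. Fosb was at 0.43 without Wt2. Without Ho2, the library with more mitochondrial RNA, mt-Nd3 was at 0.45 and mt-Nd1 at 0.36. Lower values in Ho were found for Limd2 (log2 fold change -0.56), the insulin-degrading enzyme Ide (-0.62), the nucleosome-binding protein Hmgn2 (-0.48) and the ubiquitin-conjugating enzyme Cdc34 (-0.45). Rps27rt (0.91) and Gstp1 (-0.70) have near-identical copies, and Phpt1 (0.50), Bloc1s1 (0.56) and Ide overlap other genes on the same strand, so that their counts are uncertain. Hmgcs1 overlaps the antisense gene Gm48342, which was not separated by strand.

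Neither the mutated gene nor the hedgehog and cardiac genes fixed for comparison passed the test in compact cells. Cyp51 itself (chromosome 5, minus strand, 4081145 to 4104746) was at 36.0 and 44.7 CPM in Wt1 and Wt2 and at 45.4 and 42.6 in Ho1 and Ho2, with overlap (log2 fold change 0.09, SE 0.138, adjusted p = 0.95). The RNA level does not check the labels, since the line carries a substitution. Gli1, the transcription factor whose level reads out hedgehog signalling, had 1, 3, 0 and 1 UMIs in the compact cells of Wt1, Wt2, Ho1 and Ho2. The 0 in Ho1 allows up to 0.354 CPM, or a UMI in up to 0.794% of its 378 cells, and Gli1 was too rare to be tested. The hedgehog receptor Ptch1 was at 13.2 and 11.9 CPM in Wt and 13.3 and 18.0 in Ho (log2 fold change 0.32, adjusted p = 0.799), and the fold change was 0.53 without Ho1 and 0.10 without Ho2. Of 9 hedgehog response genes tested, of 19 in the list, none had an unadjusted p below 0.05. Gata4, a core cardiac transcription factor, was at 43.8 and 45.0 CPM in Wt and 50.2 and 53.5 in Ho (log2 fold change 0.22, SE 0.127, adjusted p = 0.785). The compact wall gene Mycn had a log2 fold change of 0.08 (adjusted p = 0.954).

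No list of genes had more than 1 member that passed after adjustment, so the lists are described by their members at an unadjusted p below 0.05 and by their median log2 fold change, beside a median of 0.00744 over all genes. At this p, 4.18% of all genes in compact cells were higher in Ho and 2.66% lower. Of the 7 atrioventricular canal genes tested, 5 were higher in Ho and none lower, with a median of 0.676. They were Cacna2d2 and 4 that did not pass after adjustment: Bmp2 (log2 fold change 1.06), Rspo3 (0.84), Tbx3 (0.68) and Tgfb2 (0.34). Bmp2 was at 5.47 and 2.39 CPM in Wt1 and Wt2 and at 7.85 and 6.15 in Ho1 and Ho2, while Rspo3, at 26.9 and 14.5 CPM against 40.9 and 26.0, overlapped between the genotypes. The values rested on single libraries: without Wt2 they were 0.36 for Bmp2, 0.32 for Rspo3 and 0.10 for Tbx3, without Wt1 they were 1.55, 1.21 and 1.06, and Tgfb2 was at 0.145 without Ho1. With at least 2 Hey2 UMIs per cell Bmp2 turned to -0.14. The other Tnnt2 cells gave 6 of 8 canal genes higher in Ho, with a median of 0.450, where 2.99% of all genes were higher at this p and 2.32% lower. Whether cells of the canal within the gate moved the list was not tested.

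Of 9 compact wall genes tested 4 were higher in Ho at an unadjusted p below 0.05 and none lower (median 0.288), and of 18 core cardiac factors 5 were higher and 1 lower (median 0.154). The cardiac homeobox factor Nkx2-5 was at 39.2 and 33.8 CPM in Wt1 and Wt2 and at 46.7 and 51.0 in Ho1 and Ho2 (log2 fold change 0.45, adjusted p = 0.458). The T-box factor Tbx5 was at 15.5 and 17.5 CPM in Wt and 23.7 and 24.7 in Ho (0.53, adjusted p = 0.480), and Gata6 was at 52.4 and 59.7 against 70.4 and 81.3 (0.41, adjusted p = 0.458). All 3 had both Ho libraries above both Wt libraries, as did 19.2% of all genes tested. Tbx20 (0.29) and the Bmp receptor Bmpr1a (0.31) made up the rest of the compact wall count. Nkx2-5, Tbx5 and Tbx20 were counted in both lists, and Tbx5 is in the atrial list as well. The compact wall genes that did not reach this p were Mycn (0.08), Prdm16 (0.11), Ccnd2 (0.19), Fgfr1 (0.36) and Ccnd1 (-0.22). Isl1 was the lower one of the core cardiac factors (-0.88), and was at -0.35 without Wt2. Of 9 ventricular identity genes none had an unadjusted p below 0.05, with Irx4 at a log2 fold change of 0.31 and Hand1 at -0.64. Irx4 overlapped between the genotypes and was at 0.50 without Ho1 and 0.076 without Ho2. Hand1 was at 12.8 and 42.1 CPM in Wt and 15.1 and 25.4 in Ho, so that its spread within a genotype was as wide as that between them.

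Of 30 growth factor genes, 8 were higher in Ho and none lower at an unadjusted p below 0.05 (median 0.298). The ligand Vegfa was at 34.2 and 33.6 CPM in Wt1 and Wt2 and at 43.3 and 51.3 in Ho1 and Ho2 (log2 fold change 0.48), and Id2 was at 155 and 136 against 206 and 184 (0.43). The inhibitors Smad6 (0.34), Smad7 (0.35), Spry2 (0.30) and Dusp6 (0.45), which act as feedback on Bmp and Fgf signals, were in the same count with the receptors Igf1r (0.30) and Bmpr1a (0.31). Spry2 was at 0.46 and Dusp6 at 0.15 without Wt2. Of 15 trabecular genes 1 was higher and 2 were lower. Nppb was at 46.5 and 102 CPM in Wt and 107 and 129 in Ho (0.58), Slit2 at 7.75 and 13.8 against 6.40 and 5.38 (-0.97) and Cited1 at 207 and 428 against 210 and 214 (-0.61), the last with Wt2 alone high. Without Wt1 the change of Nppb was 0.20 and without Wt2 1.34, and Slit2 was at -0.39 without Wt2.

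Cholesterol genes had 7 of 31 members higher in Ho and none lower at an unadjusted p below 0.05, with a median of 0.118. Beside Hmgcs1 these were the sterol sensor Insig1 (log2 fold change 0.67), the last enzyme of the pathway Dhcr7 (0.58), the lysosomal cholesterol exporter Npc1 (0.45), the master regulator Srebf2 (0.38), Msmo1 (0.33) and Idi1 (0.26). Some of these values moved with single libraries. Without Wt2 they were 0.915 for Dhcr7, 0.65 for Srebf2 and 0.51 for Msmo1. Srebf2 was at 0.23 without Wt1 and Idi1 at 0.135 without Ho1. The summed cholesterol list was at 937 and 1008 CPM in Wt1 and Wt2 and at 1060 and 1069 in Ho1 and Ho2. Of the 13 mitochondrially encoded genes 7 were higher in Ho and none lower (median 0.379), but the sums were 15436, 15064, 15887 and 22472 CPM in Wt1, Wt2, Ho1 and Ho2. Only Ho2 stood out, and it was also the highest in the other Tnnt2 cells, at 22829 CPM against 14672, 14886 and 15798 in Wt1, Wt2 and Ho1. The 72 nuclear genes of the respiratory chain had 2 higher and 1 lower, with a median of 0.0309.

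The remaining lists are given by the same counts, where 4.18% of all genes in compact cells were higher in Ho and 2.66% lower. The first 2 lists below were near these shares. Of 53 G2/M genes 3 were higher in Ho and none lower (median 0.0646), namely the mitotic motors Kif11 (log2 fold change 0.44) and Kif23 (0.41) and Rangap1 (0.29), and of 43 S phase genes none was higher and 1 lower, Gins2 (-0.34). Rangap1 was at 0.17 without Ho2. Among 18 cell cycle brakes Tob1 (0.63), Tob2 (0.50) and Btg1 (0.39) were higher and Rbl1, a pocket protein, lower (-0.87). Tob1 was at 0.40 without Ho2 and Btg1 at 0.23 without Ho1. Sarcomere genes had 1 of 34 higher (Ldb3, 0.27, median 0.0791) and calcium cycling genes 2 of 16 (median 0.140), among them the sodium-calcium exchanger Slc8a1 (0.29). Ldb3 was at 0.13 without Wt1 and 0.48 without Wt2. Glycolysis and hypoxia genes had 4 of 29 higher and 1 lower (median 0.0348), with the hexokinase Hk2 (0.47) and Ankrd37 (0.57) among the higher ones. Notch genes had 1 of 12 higher (Hes1, 0.37) and none lower. The log2 fold change of Hes1 was 0.10 without Ho1 and 0.56 without Ho2. Atrial genes had 2 of 9 higher and none lower. Outflow tract genes had 1 of 7 higher and 3 lower, with a median of -0.315. Sinus venosus and pacemaker genes had 2 of 6 higher and 1 lower.

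**Figure D5:**
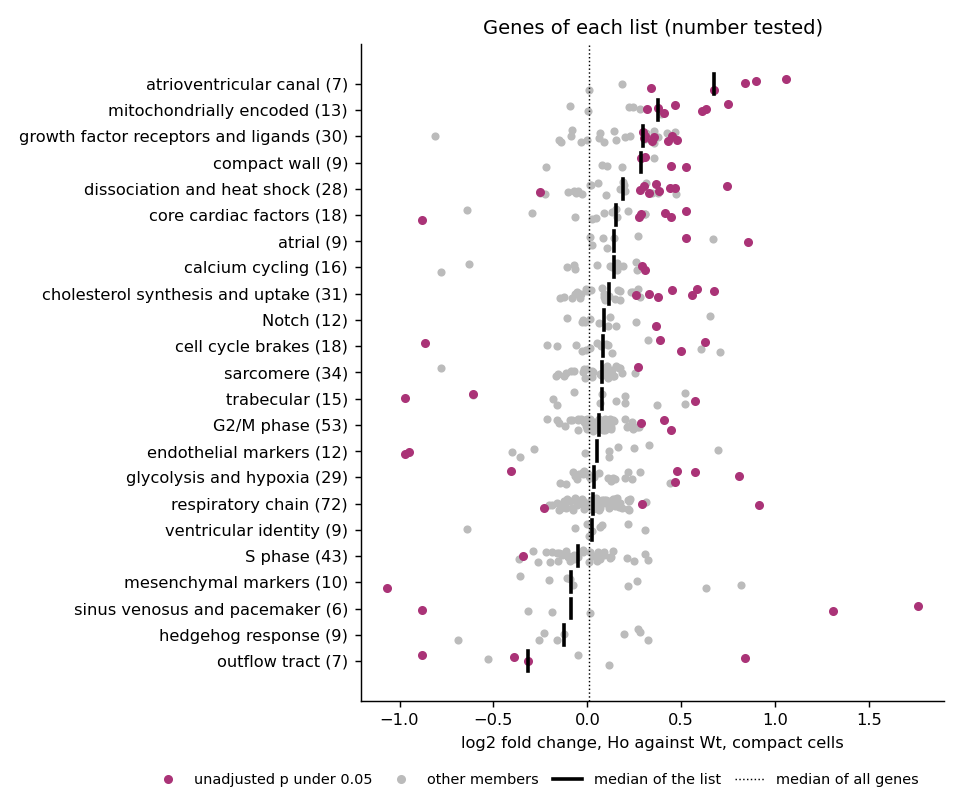
Log2 fold change of Ho against Wt in compact cells for each tested gene of the lists with at least 5 tested genes. Purple points have an unadjusted p below 0.05, black bars are list medians and the dotted line is the median of all genes. The atrioventricular canal list has the highest median, 0.676, and the outflow tract list the lowest, -0.315.

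Markers of other cells and of handling were measured beside these. Endothelial markers summed to 112, 123, 138 and 59.5 CPM in the compact cells of Wt1, Wt2, Ho1 and Ho2, led by Egfl7, with 2 of 12 tested genes lower in Ho and none higher. Mesenchymal markers summed to 119, 82.2, 133 and 54.1 CPM, led by Col3a1, with 1 of 10 lower, so that both lists were lowest in Ho2. Epicardial markers, led by Tbx18, were at 13.8, 19.4, 22.5 and 32.2 CPM, with 1 of 4 higher. Erythroid markers were at 10.7, 3.74, 18.8 and 5.95 CPM, led by Hbb-y with Alas2 and Slc4a1 at 0, and had 1 of 2 higher. Epithelial markers were at 85.2, 66.9, 55.7 and 90.1 CPM, led by Krt18, and macrophage markers at 10.3, 10.3, 14.9 and 9.86, led by Lyz2 with Ptprc, Cx3cr1, C1qa and C1qb at 0. Neither had a gene at an unadjusted p below 0.05. The genes of dissociation and heat shock summed to 9316, 9685, 8792 and 9776 CPM, with overlap between genotypes, while 8 of 28 were higher in Ho and 1 lower (median 0.192), Fos at 0.46 and Fosb among the higher ones. The part of these RNAs in the genotype values was not tested, except that 5 genes were called when cells with 2 or more endothelial UMIs were left out. Doublets called by Scrublet were 6.90%, 7.14%, 10.3% and 3.02% of compact cells in Wt1, Wt2, Ho1 and Ho2, and 4 genes were called without them.

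The genotype effect of compact cells was set against that of the other Tnnt2 cells in a joint fit. In the other cells none of 14685 genes (0%) was called by edgeR, with 779 at an unadjusted p below 0.05, and DESeq2 called 17. In the joint fit 2 of 13384 genes (0.0149%) differed in their genotype effect, Dqx1 and Pf4. With the cell with the most UMIs of a gene left out of each library neither passed, and the difference was 5.15 for Dqx1 (adjusted p = 0.189), no smaller than before, and 1.38 for Pf4. The genes called in compact cells were otherwise not shown to be particular to them. The difference of effects was 0.35 on the log2 scale for Cacna2d2 (adjusted p = 1.00), 0.09 for Wdr89 (adjusted p = 1.00) and 2.00 for Pbld1 (adjusted p = 0.510). For Hmgcs1 it was 0.40 (adjusted p = 0.794), with 94.0 and 81.2 CPM in the other cells of Wt1 and Wt2 and 89.9 and 104 in those of Ho1 and Ho2.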

How the data were processed

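Hearts of E10.5 embryos were profiled as 4 libraries. The authors ran Cell Ranger 6.1.1 on mm10, and the deposited UMI counts per gene and cell were used raw. The labels' tools also list Seurat 4.1.0. Cells were gated as described, summed per library and compared with edgeR 4.0.16 (TMM, filterByExpr, quasi-likelihood, Benjamini-Hochberg at 0.05) in R 4.3.3. The 5 defining genes were left out of counts and adjustment. The per-cell test of the study was not used, since cells are not replicates. Differences of genotype effects were an interaction with the library as block. DESeq2 1.42.0, other filters, gates, depths and left-out libraries were alternatives. Scrublet ran in scanpy 1.11.5. Intervals are exact (Clopper-Pearson) at 95%, a count of 0 allowed 3 counts, and both cover counting error only. Positions are GENCODE M21 (GRCm38), which held 99.6% of 32285 identifiers. Overlapping genes were not separated by strand. On simulated data for compact cells, edgeR recovered 155 of 200 genes changed by a log2 of 1 and 21 of 200 changed by 0.5. False calls were 7 and 0. The changed genes were drawn from those with a mean of at least 20 UMIs per sum, so recovery of rarer genes was not tested. The cells and gene lists were chosen with earlier results of these data known. Genes named were the defining genes, those called, up to 20 in all by smallest p with libraries that did not overlap and at least 20 CPM, up to 12 highest and 12 lowest of at least 20 CPM against the other cells, up to 4 per list of at least 5 CPM by size of change, those called in the interaction, and Cyp51, Gli1, Ptch1, Gata4, Mycn, Bmp10, Hand1 and Irx4. Others were named after their values were seen.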

Additional observations from a re-analysis of the deposited data

Results flagged for a closer look

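The genotype effect differed between compact and other Tnnt2 cells for 2 genes. For Pf4, a chemokine of platelets and macrophages, the difference of the effects was 4.83 on the log2 scale (edgeR, adjusted p = 1.59e-08), from 1, 6, 147 and 1 UMIs in the compact cells of Wt1, Wt2, Ho1 and Ho2, and 129 of the 147 UMIs lay in 1 cell. For Dqx1 the difference was 4.10 (edgeR, adjusted p = 0.000373), from 2, 2, 99 and 35 UMIs, with 44 in 1 cell of Ho1 and 25 in 1 cell of Ho2. With the cell with the most UMIs left out of each library neither was called by edgeR, with a difference of 1.38 for Pf4 and of 5.15 for Dqx1 (adjusted p = 0.189), the latter no smaller than before.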

How the results depend on the processing

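The number of genes called in compact cells, 4, was 2 with DESeq2, 2 with at least 10 UMIs in every sum, 2 with sums thinned to the smallest, 7 with Tnnt2 and Myl2 at 20 per 10000, 20 with Hey2 at 2 UMIs, 73 without a filter on low counts, 0 with cells thinned to 5000 UMIs, and 26, 7, 169 and 126 without Wt1, Wt2, Ho1 and Ho2 in turn, where the lone sample is assumed to vary like the other genotype. Same-numbered libraries did not vary together (correlation 0.0444 in compact and -0.211 in other cells), and the replicate block gave 72 calls in compact and 0 in other cells, with 47 in other cells when the numbers were crossed. In the other Tnnt2 cells the 0 calls became 17 with DESeq2, 218 without the filter, 1 with cells of at most 1 endothelial UMI and 0, 0, 57 and 185 without Wt1, Wt2, Ho1 and Ho2. The 2 differences of genotype effect became 0 with DESeq2, 0 with 10 UMIs in every sum, 0 at 20 per 10000, 0 with thinned cells, 0 without the top cell, 1 with thinned sums, 1 with few endothelial UMIs, 6 with Hey2 at 2 UMIs, 12 without the filter and 11, 2, 9 and 32 without Wt1, Wt2, Ho1 and Ho2. The S phase difference was 20.8 CPM with thinned cells and -157.2 to 66.2 with a library left out, and the G2/M difference -50.3 to 394.6, and 548 with thinned cells. The difference in the share of compact cells was 1.40 points without Wt1 and 3.80 without Wt2. Genes 1.5-fold higher in compact than other cells numbered 19 to 37 and lower genes 177 to 285 with a library left out, the largest without Ho1, and 109 were lower with 5 CPM added. Of the genes named, signs turned with a library left out for Mycn (-0.019 to 0.13), Hand1 (-1.08 to 0.64) and Cited1 (-1.02 to 0.027), which turned without Wt2, for Cyp51 (-0.025 to 0.28) and Bmp10 (-0.031 to 0.80), negative without Wt1, and for the Pf4 difference (-0.41 to 5.45), negative without Wt2. They also turned for Gata4 with thinned cells (-0.058), Isl1 with thinned sums (0.0057), Bmp2 with Hey2 at 2 UMIs (-0.14) and the Pf4 difference at 20 per 10000 (-1.26). With 1 library left out, 34 of the 73 genes recomputed under the alternatives in compact cells moved by over 1.5 times in log2 fold change, 19 of them without Wt2. The cause was not tested. Size factors of DESeq2 within edgeR, removed doublets and a 10% mitochondrial limit kept the counts of calls. Wt1 had the smallest sum in the gate, 2241973 UMIs, and its part in the precision was not tested.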
